A study of Homo sapiens with 30 samples.

Results

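The genes described let cells sense ATP and adenosine, or make adenosine, outside the cell: the adenosine receptors ADORA1, ADORA2A and ADORA2B, the ATP receptors P2RY2 and P2RY11 of the P2Y family, the ATP receptors P2RX4, P2RX5 and P2RX6 of the P2X family, and NT5E, the enzyme that makes adenosine at the cell surface. They were chosen by name, and their members are all probes that carry one of these 9 gene names: 14 of the 58201 probes on the array and 9 of its 43972 gene names. The samples were BEAS-2B cells, an immortalized human bronchial epithelial line, grown on Transwell inserts under medium for 24 h and then for 24 h at the air-liquid interface. In a sedimentation chamber, the cells received 10 mg of whole birch pollen dispersed with pressured air, or went through the same procedure behind a mesh that holds pollen back, which the labels call air and which is called mock here. RNA was taken 10 and 55 min, 2h25 and 6h50 min, and 24 h after exposure, and 3 cultures per exposure and time gave 30 one-colour arrays in 10 groups. A single line speaks for no other donor, and mock cells also went through the handling and the chamber.

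ATP leaves airway cells under mechanical load and other stress and acts nearby on P2Y and P2X receptors. Enzymes on the cell surface then strip its phosphates, and NT5E (CD73) makes adenosine from AMP in the last of these steps. Adenosine acts on its own receptors: ADORA1 lowers cyclic AMP, while ADORA2A and ADORA2B raise it, and ADORA2B needs more adenosine than the others to respond. In airway epithelium ADORA2B drives chloride secretion and ciliary beating, and P2RY2 raises intracellular calcium when ATP or UTP binds.

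For 3 of the genes the sequence of the second probe is printed. Those of ADORA2A and P2RX6 were above background on 0 and 1 of the 30 arrays. That of NT5E passed a test of change with time in pollen that the first NT5E probe did not. Probe positions are those of the array's annotation on hg19, and the letters are those of the probe, 5′ to 3′, with no capitals because no motif is marked. The ADORA2A probe lies at chr22:24829457-24829516 and holds 55% G and C, and the P2RX6 probe at chr22:21380555-21380614 (45%). The 60 letters of the NT5E probe (36.7%) span chr6:86176992-86181005, so that they lie on more than 1 exon.
ADORA2A A_33_P3214035: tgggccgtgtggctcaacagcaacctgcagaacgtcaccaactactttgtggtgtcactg
P2RX6 A_33_P3618960: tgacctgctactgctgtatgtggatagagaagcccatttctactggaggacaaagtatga
NT5E A_24_P316430: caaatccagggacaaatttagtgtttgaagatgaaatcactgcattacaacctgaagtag

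From 2h25 min to 24 h ADORA2B rose and NT5E fell in both exposures, in pollen by the second NT5E probe only. The 250 bases before their RefSeq start sites are printed for that reason, both from the plus strand of GRCh38.p14. ADORA1, whose stretch is not printed, also fell in both exposures. The ADORA2B stretch is chr17:15944880-15945129 and the NT5E stretch is chr6:85449833-85450082. Capitals mark TGACG, the half-site of the cyclic AMP response element, which was sought on both strands.
ADORA2B: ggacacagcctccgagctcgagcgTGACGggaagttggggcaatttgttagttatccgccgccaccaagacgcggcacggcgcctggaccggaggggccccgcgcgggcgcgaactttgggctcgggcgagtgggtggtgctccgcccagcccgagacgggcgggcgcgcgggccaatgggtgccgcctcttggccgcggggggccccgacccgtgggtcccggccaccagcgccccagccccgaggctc
NT5E: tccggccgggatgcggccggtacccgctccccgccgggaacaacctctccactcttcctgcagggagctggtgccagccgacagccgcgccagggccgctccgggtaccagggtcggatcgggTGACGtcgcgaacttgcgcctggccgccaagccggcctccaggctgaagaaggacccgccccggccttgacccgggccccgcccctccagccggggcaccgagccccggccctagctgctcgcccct
Each stretch holds TGACG 1 time on the printed strand, starting 226 bases before the start of ADORA2B and 127 bases before that of NT5E. TGACG occurs in 21.2% of the 35116 promoters of this length in the RefSeq table, in which 5 of the 9 genes were found. Among the other 3, P2RX4 holds it 1 time and ADORA1 and P2RY11 do not. ACGTG, the core of the hypoxia response element, which can share letters with TGACG, occurs in 18.5% of all promoters and is in the P2RY11 stretch and not in those of ADORA2B and NT5E. GGGCGG, the GC box, occurs in 42.6% of all promoters, 2 times each in ADORA1, ADORA2B and NT5E, 3 times in P2RX4 and not in P2RY11. A match of letters is a description of the stretch and not of binding.

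Signals are given as log2 of the processed intensity minus the 75th percentile of the same array, so that 0 is the level of that percentile, and levels of different probes are not set against each other. ADORA2B (A_23_P55477, chr17:15878851-15878910), P2RY2 (A_23_P24903, chr11:72946916-72946975), P2RY11 (A_33_P3239759, chr19:10225660-10225719), P2RX4 (A_33_P3362088, chr12:121671848-121671907), P2RX5 (A_23_P433785, chr17:3576960-3577019) and NT5E (A_24_P354715, chr6:86204891-86204950) were well above background on all 30 arrays. The second NT5E probe was too, and the second P2RY2 probe (A_22_P00011377, chr11:72953318-72953377) was on all 29 arrays that carried it. ADORA1 (A_23_P74299, chr1:203135679-203135738) was well above background on 25 of 30 arrays, the second P2RX5 probe on 26, P2RX6 (A_23_P355980, chr22:21382322-21382381) on 12 and the second P2RX6 probe on 1.

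ADORA2A was at the limit of the array. Its first probe (A_24_P237270, chr22:24837485-24837544) passed the background limit on 5 of the 15 arrays of mock and 2 of the 15 of pollen, with log2 levels of -8.79 to -5.72, and its second probe on none, at -9.13 to -7.18. Both ADORA2A probes and the second P2RX6 probe were above background on all 3 arrays of no group and were therefore not tested, which left 11 probes of 8 genes among the 32100 tested.

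Set beside the rest of their families, BEAS-2B cells measured only some of these receptors. Of the 19 adenosine, P2Y and P2X receptors with a probe, 7 were well above background on every array that carried them, 8 on some and 4 on none. The 4 were ADORA3, the fourth adenosine receptor, and the P2Y receptors P2RY12, P2RY13 and P2RY14. Of the others not described above, P2RX2 was measured on 30 arrays, the P2RX7 probe used on all 29 that carried it, P2RY1 on 28 of 29, P2RX3 on 26, P2RY4 on 9, P2RY6 on 5 and P2RX1 on 2.

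**Figure D1:**
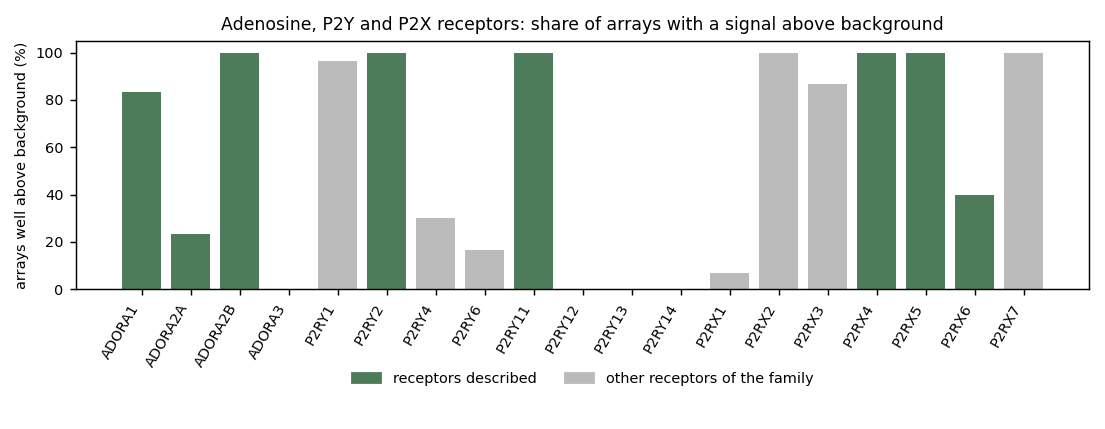
Share of the arrays carrying a probe (y axis, percent) on which each adenosine, P2Y and P2X receptor (x axis) was well above background, with green bars for the receptors described and grey bars for the rest of the families. ADORA2B, P2RY2, P2RY11, P2RX4 and P2RX5 reach every array, ADORA1 reaches 25 of 30, and ADORA3, P2RY12, P2RY13 and P2RY14 reach none.

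Bronchial epithelial markers were those of the labelled cell type: 9 of 9 were above background on all 30 arrays, among them the keratins KRT5 and KRT18. Of 6 mesenchymal genes 5 were too, but not the collagen COL3A1 (0 arrays). Among markers of cells that the culture should lack, the mast cell genes FCER1A and TPSAB1 and the endothelial PECAM1 were above background on 0 arrays, whereas the leukocyte genes PTPRC and CD14 and the endothelial CDH5 were on all 30. Among others, KIT was on 1 array, CD3E on 17 and VWF on 28, and of the ciliated and secretory genes FOXJ1 was on 8, MUC5AC on 27 and SCGB1A1 on 29. The probes above background made up 44.7 to 63.2% of each array, the 75th percentile was an intensity of 578 to 2111, and 0 spots were saturated. The arrays lay on 5 slides. Mock and pollen shared a slide at 10 min, 6h50 min and 24 h, and at 2h25 min each replicate of mock shared a slide with that of pollen. All 6h50 min arrays had a slide to themselves. Pollen replicate 1 of 55 min was alone on its slide and of another array design.

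The first question was whether pollen changed the level of any of these genes at a given time. None of the 11 probes passed the test at any of the 5 times. By limma over all 32100 probes, with a call at an adjusted p below 0.05 and a change of at least 1.1-fold, 0 of 11 were called at each time, where, in order of time, 0%, 0.00312%, 0.0343%, 0.0436% and 0.00312% of all probes were. A count of 0 among 11 is near such a background. At an unadjusted p under 0.05 the counts were 0, 0, 0, 0 and 1 of 11, against 1.83%, 5.08%, 2.98%, 7.44% and 3.61% of all probes. The smallest adjusted p of a member at these times was 1, 0.951, 1, 0.9 and 1 by limma, and the median difference over the members was -0.02, 0.07, -0.09, 0.11 and 0.1 on the log2 scale, beside 0.01, -0.01, -0.03, 0 and 0 over all tested probes. For the 8 probes measured on all 30 or 29 arrays that carried them, the estimates lay between -0.23 and 0.52, and the 95% intervals reached from 1.55-fold lower to 1.96-fold higher in pollen.

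**Figure D2:**
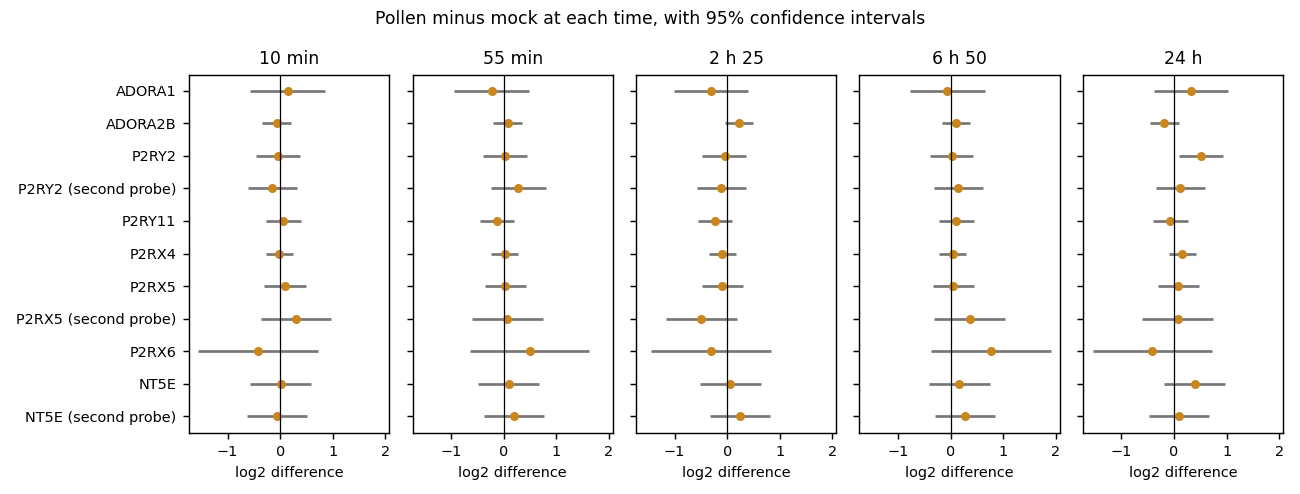
Log2 difference of pollen minus mock (x axis) for each of the 11 tested probes (y axis), 1 panel for each of the 5 times, with points for the estimates and lines for the 95% intervals from limma. The P2RY2 probe A_23_P24903 at 24 h, at 0.52, is the only probe whose interval lies clear of 0.

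Groups lay apart for 1 of 11 probes at 55 min, 6h50 min and 24 h, and for none at 10 min and 2h25 min, while 10.8%, 11.7%, 8.8%, 5.83% and 6.97% of all probes did so at these times. The 3 cases were the second P2RY2 probe at 55 min (0.27), with 2 pollen arrays because the other design lacks it, P2RX6 at 6h50 min, where no array of either group was above background, and the first P2RY2 probe at 24 h. With 3 arrays against 3, or 3 against 2, these counts are close to the share of all probes. The summed level of the leukocyte markers also lay apart at 6h50 min, at -0.88 to -0.76 in mock and -0.35 to -0.1 in pollen. At 24 h it lay at -0.71 to -0.6 and -0.4 to -0.36. CD14, at -0.99 to 0.28 over the arrays, makes up most of this sum, while PTPRC was at -6.07 to -3.62. The sum is therefore not read as a level of leukocytes. At these times 0 of the 3 tested leukocyte markers were called, where 0.0436% and 0.00312% of all probes were. The part of this sum in the P2RX6 and P2RY2 values was not tested. RNA from whole cultures was measured, so that fewer cells of a kind and less RNA per cell cannot be told apart.

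The second question was how the genes moved over the time course. The arrays of 2h25 min and 24 h share a slide for some replicates, and those of 6h50 min share none with another time, so that changes to and from 6h50 min cannot be told apart from the slide. The comparison of 24 h with 2h25 min, added after the data had been seen for that reason, is therefore given first. In mock cells 27.4% of all probes were called in it (12.5% higher and 14.9% lower at 24 h), and 4 of 11 members were: ADORA2B rose, and ADORA1 and both NT5E probes fell. In pollen 23% of all probes were called (11.2% higher and 11.8% lower), and 3 of 11 members: ADORA2B rose, and ADORA1 and the second NT5E probe fell. Over 11 probes, such counts lie near the background.

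In the early steps few probes of any kind were called. From 10 to 55 min, 0 of 11 members were called in mock (0.187% of all probes) and in pollen (0.841%), and 0 had an unadjusted p under 0.05, against 10.8% and 15% of all probes. From 55 min to 2h25 min, 0 of 11 were called in mock (0.0156% of all probes), and 1, ADORA2B, had an unadjusted p under 0.05, against 4.3% of all probes. In pollen 1 of 11, ADORA2B, was called in that step (0.202% of all probes). There 3 of 11 had an unadjusted p under 0.05. No share of all probes stands beside that count, so it is not read as an excess.

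**Figure D3:**
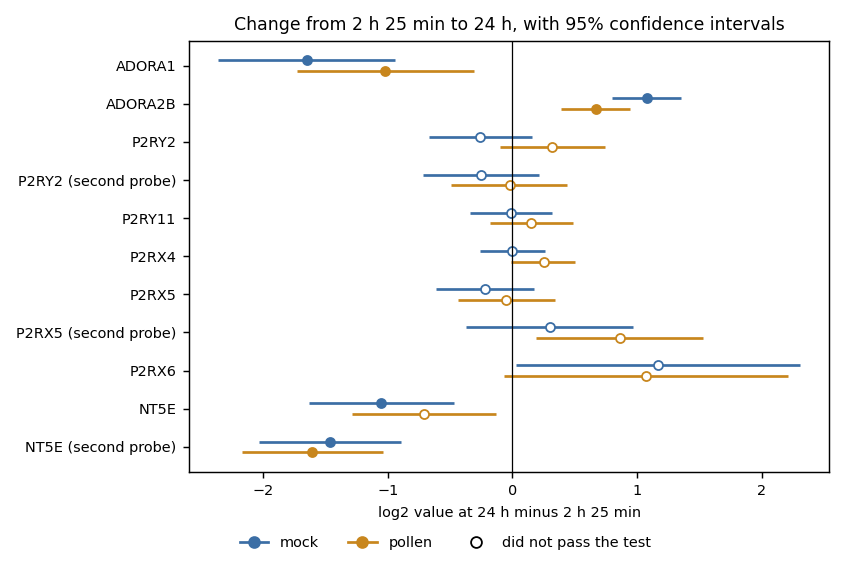
Log2 change from 2h25 min to 24 h (x axis) of the tested probes (y axis), in mock (blue) and pollen (orange), with lines for the 95% intervals from limma and open points where the test was not passed. ADORA2B lies at 1.08 in mock and 0.67 in pollen, and the NT5E probe A_24_P316430 at -1.46 and -1.61.

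ADORA2B, the receptor that responds to high adenosine, climbed over the course in both exposures. In mock, the 3 arrays read 1.88, 1.99 and 1.79 at 10 min, 1.58, 1.72 and 1.89 at 55 min, 2.46, 2 and 2.2 at 2h25 min, 2.75, 2.74 and 2.58 at 6h50 min, and 3.52, 3.34 and 3.04 at 24 h. In pollen, they read 1.73, 1.94 and 1.77 at 10 min, 1.81, 1.82 and 1.8 at 55 min, 2.58, 2.4 and 2.34 at 2h25 min, 2.68, 2.83 and 2.86 at 6h50 min, and 3.26, 3.22 and 2.86 at 24 h. All 6 arrays of 24 h lay above all 6 of 2h25 min, and mock and pollen overlapped at every time.

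From 2h25 min to 24 h, ADORA2B rose in mock from 2.22 ± 0.23 to 3.3 ± 0.25 (SD, n = 3), by 1.08 (2.11-fold, SE 0.13, adjusted p = 3.2e-06 by limma), and was called in all 16 alternatives, at 0.97 to 1.21. In pollen, ADORA2B rose from 2.44 ± 0.12 to 3.11 ± 0.22, by 0.67 (1.59-fold, adjusted p = 7.57e-04), at 0.59 to 0.8 in the alternatives, of which 2 lost the call: scaling on each array's own probes (0.7, adjusted p = 0.0699) and normexp with quantile normalization (0.64, adjusted p = 0.0736). On the slide that held both times, ADORA2B was 1.1 higher in mock and 0.77 higher in pollen, with 3 arrays of 24 h against 1 of 2h25 min. The change in pollen minus that in mock was -0.41 (95% interval of the difference -0.8 to -0.02, adjusted p = 1 by limma), which did not pass the test. Across all probes, 2 of 32100 (0.00623%) and 0 of 11 members passed the test of that difference.

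At the early times, the step of ADORA2B from 55 min to 2h25 min was 0.49 in mock (adjusted p = 0.642 by limma). In pollen it was 0.64 (1.56-fold, adjusted p = 0.0434), and ADORA2B was the 1 member called there, where 0.202% of all probes were. That call was lost in 12 of 18 alternatives, among them leaving out any 1 of the 6 arrays. Pollen minus mock in ADORA2B was -0.07 at 10 min, 0.08 at 55 min, 0.22 at 2h25 min (95% interval -0.05 to 0.5), 0.1 at 6h50 min and -0.19 at 24 h, with adjusted p of 1, 0.993, 1, 0.983 and 1 by limma. These differences had no common sign and none passed the test, also at 24 h with the replicate number as a block (adjusted p = 0.635), and that of 55 min was -0.34 when each array was scaled on its own probes.

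**Figure D4:**
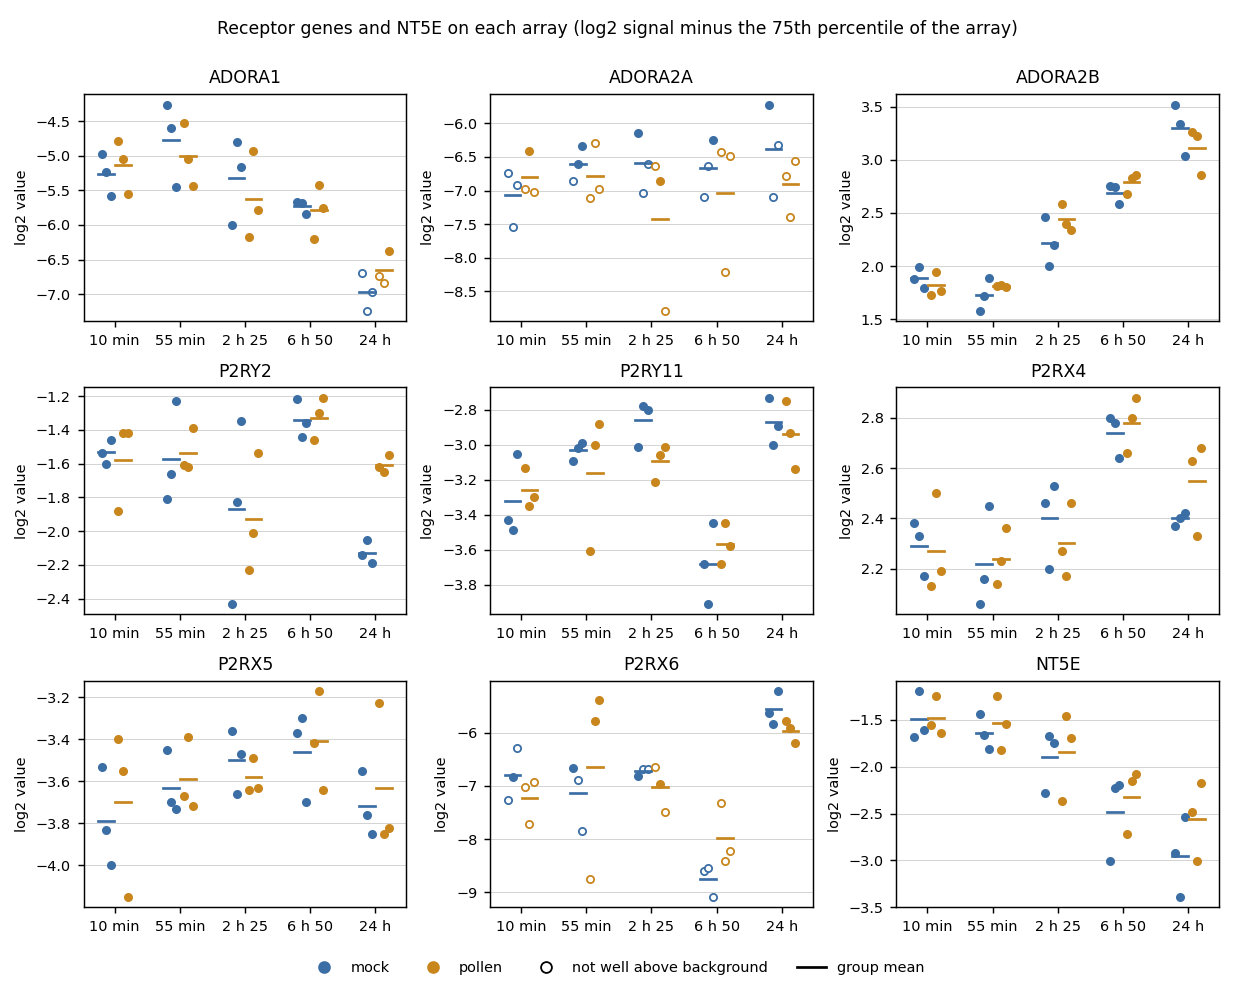
Log2 level relative to the 75th percentile (y axis) on every array at the 5 times (x axis), 1 panel per gene, with blue points for mock, orange points for pollen, open points where the probe was not well above background, and short lines at the group means. The scale differs between panels, and each gene with 2 probes is shown by its first. ADORA2B ends at 3.3 in mock and 3.11 in pollen, NT5E at -2.95 and -2.56, and the points of the exposures overlap at most times.

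ADORA1, the receptor that lowers cyclic AMP, was measured at the first 4 times and lost at 24 h. In mock, the arrays read -4.98, -5.24 and -5.58 at 10 min, -4.26, -4.6 and -5.45 at 55 min, -6, -4.8 and -5.16 at 2h25 min, -5.67, -5.68 and -5.84 at 6h50 min, and -6.7, -7.24 and -6.97 at 24 h. In pollen, they read -4.79, -5.05 and -5.55 at 10 min, -4.53, -5.04 and -5.43 at 55 min, -6.18, -4.93 and -5.78 at 2h25 min, -6.21, -5.42 and -5.75 at 6h50 min, and -6.74, -6.84 and -6.37 at 24 h. At 24 h no mock array and only pollen replicate 3 was well above background, and all 6 values lay below every earlier one.

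Between 2h25 min and 24 h, ADORA1 in mock was at least 2.43-fold lower. This is a bound, since at 24 h the probe was not well above background, and it holds for the main scaling only. The fitted change was -1.65 (adjusted p = 0.00084 by limma). The call was kept in all 16 alternatives, but the size was -0.45 with normexp and quantile normalization and -0.73 in the authors' table. In pollen, where 1 of 3 arrays of 24 h was well above background, the fitted change of ADORA1 was -1.02 (adjusted p = 0.0337), and the call was lost in 10 of 16 alternatives, with -0.3 and -0.47 in the same pair of settings. Pollen minus mock in ADORA1 ranged over the first 4 times from -0.31 at 2h25 min to 0.14 at 10 min, with 95% intervals of -1.02 to 0.4 and -0.57 to 0.85, and no value is given for 24 h, where mock was not well above background.

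NT5E, which makes the adenosine that these receptors bind, fell late. On the first probe, the mock arrays read -1.68, -1.19 and -1.61 at 10 min, -1.44, -1.66 and -1.81 at 55 min, -2.28, -1.67 and -1.75 at 2h25 min, -3.01, -2.23 and -2.2 at 6h50 min, and -2.92, -3.39 and -2.54 at 24 h. The pollen arrays read -1.56, -1.25 and -1.64 at 10 min, -1.25, -1.82 and -1.54 at 55 min, -2.37, -1.46 and -1.69 at 2h25 min, -2.72, -2.15 and -2.08 at 6h50 min, and -2.48, -3.01 and -2.17 at 24 h. In mock the 24 h values lay below all of 2h25 min, while in pollen the groups overlapped.

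On the first probe NT5E went from -1.9 ± 0.33 to -2.95 ± 0.42 in mock, a fall by 1.05 (SE 0.28, adjusted p = 0.00657 by limma), and from -1.84 ± 0.47 to -2.56 ± 0.43 in pollen, a difference of -0.71 that did not pass the test (adjusted p = 0.0682). The mock call was lost with normexp and quantile normalization (-0.8, adjusted p = 0.0998) and without mock 24 h replicate 2 (-0.83, adjusted p = 0.0511). The difference between these changes in NT5E was 0.34 (95% interval -0.48 to 1.15), so the exposures were not shown to differ.

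The exon-spanning NT5E probe printed above gave the same direction in both exposures. Its arrays read -4.31, -3.51 and -3.83 in mock and -3.99, -3.38 and -3.55 in pollen at 2h25 min, against -5.98, -5.01 and -5.05 in mock and -5.15, -5.8 and -4.8 in pollen at 24 h. No array of 24 h reached the level of 2h25 min, and NT5E fell by 1.46 in mock (adjusted p = 3.23e-04 by limma) and by 1.61 in pollen (adjusted p = 1.89e-04). These calls were kept in the alternatives, at -1.68 to -0.57 and -1.83 to -0.71. Over the 30 arrays the levels of the 2 NT5E probes had a correlation of 0.85, which describes arrays that share slides and times. The same measure was 0.5 for P2RY2, 0.13 for P2RX6 and 0.04 for ADORA2A.

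Pollen minus mock in NT5E was 0.01, 0.1, 0.06, 0.16 and 0.39 on the first probe at the 5 times in order, with a 95% interval at 24 h of -0.19 to 0.97. On the second NT5E probe it was -0.06, 0.19, 0.24, 0.28 and 0.1. The estimates were higher in pollen at 5 of 5 times on the first probe and at 4 of 5 on the second, and none passed the test. At 24 h, where numbers pair the replicates, pollen minus mock was 0.44, 0.38 and 0.37 in the 3 pairs on the first NT5E probe and 0.83, -0.79 and 0.25 on the second, and with the number as a block the adjusted p by limma was 0.19 and 0.997. At 55 min the NT5E differences were -0.31 and -0.22 when each array was scaled on its own probes, where the median of all probes was -0.37 in place of -0.01.

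**Figure D5:**
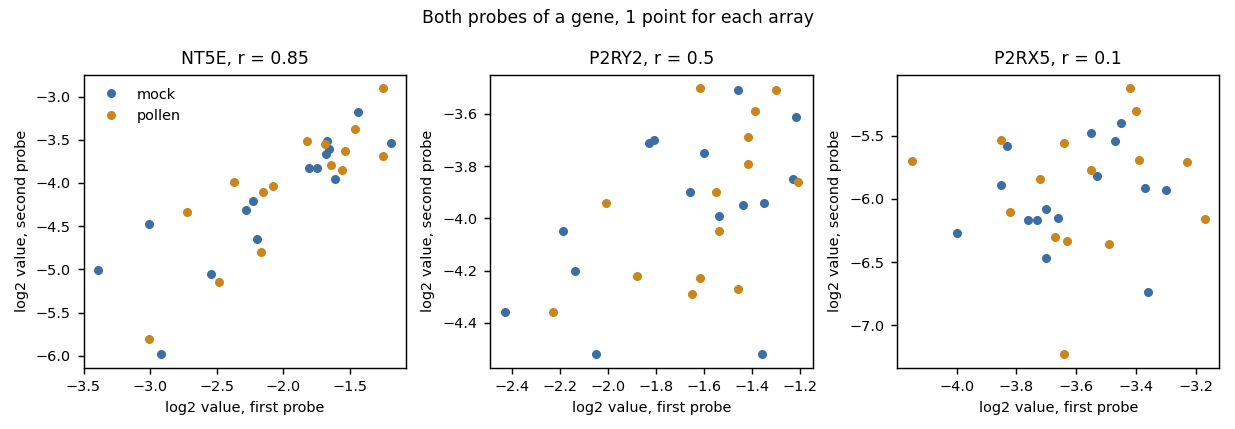
Log2 levels of the first (x axis) and second (y axis) probe of NT5E, P2RY2 and P2RX5, 1 point per array, blue for mock and orange for pollen. The NT5E points rise together (r = 0.85), those of P2RY2 less (r = 0.5), and those of P2RX5 hardly (r = 0.1).

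P2RY2, the receptor for ATP and UTP, differed most between exposures at 24 h. The mock arrays read -2.14, -2.05 and -2.19 and the pollen arrays -1.62, -1.65 and -1.55, so that the groups did not overlap. P2RY2 was thus 0.52 higher in pollen (1.43-fold, SE 0.2, 95% interval 0.1 to 0.94), with an adjusted p of 1 by limma, and it was called in none of the alternatives run (0.42 to 0.56). Its second probe gave 0.12 (95% interval -0.35 to 0.59). At 2h25 min the P2RY2 arrays read -2.43, -1.83 and -1.35 in mock and -2.23, -2.01 and -1.54 in pollen, a spread wider than the difference at 24 h.

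On the first probe P2RY2 overlapped between exposures at the other times. It read -1.54, -1.6 and -1.46 in mock and -1.88, -1.42 and -1.42 in pollen at 10 min, and -1.81, -1.66 and -1.23 against -1.61, -1.62 and -1.39 at 55 min. At 6h50 min P2RY2 read -1.22, -1.44 and -1.36 against -1.46, -1.3 and -1.21. Its change from 2h25 min to 24 h was -0.26 in mock and 0.32 in pollen, neither called, and the difference of the 2 changes was 0.57 (95% interval -0.02 to 1.16, adjusted p = 1 by limma).

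P2RY11, an ATP receptor that raises both cyclic AMP and calcium, varied more over time than between exposures. Its mean was -3.32 in mock and -3.26 in pollen at 10 min, -3.03 and -3.16 at 55 min, -2.86 and -3.09 at 2h25 min, -3.68 and -3.57 at 6h50 min, and -2.87 and -2.94 at 24 h. The lowest mock and pollen means were thus those of 6h50 min, and 2h25 min and 24 h differed by -0.01 in mock and 0.15 in pollen. Pollen minus mock in P2RY11 was largest in size at 2h25 min, at -0.23 (95% interval -0.56 to 0.1).

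P2RX4, an ATP-gated cation channel of the cell surface and lysosomes, was level from 2h25 min to 24 h in mock (2.4 and 2.4) and differed by 0.25 in pollen (2.3 and 2.55). Its arrays ranged from 2.06 in mock at 55 min to 2.88 in pollen at 6h50 min. At 24 h P2RX4 read 2.37, 2.4 and 2.42 in mock and 2.63, 2.33 and 2.68 in pollen, where 1 pollen array lay below all of mock, and the difference was 0.15 (95% interval -0.1 to 0.41).

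P2RX5, another ATP-gated channel, had 2 probes that differed. On its first probe the group means lay between -3.79 and -3.41 and the arrays between -4.15 and -3.17, and pollen minus mock was between -0.09 and 0.09 at all times, with 95% intervals within -0.48 and 0.48. The second P2RX5 probe (A_23_P413760) went from -6.64 to -5.78 in pollen from 2h25 min to 24 h (0.86, adjusted p = 0.0579 by limma) and from -6.14 to -5.85 in mock, while the first differed by -0.05 and -0.22. The levels of the 2 P2RX5 probes had a correlation of 0.1 over the arrays.

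P2RX6, the P2X channel subunit that forms channels poorly on its own, was near background except at 24 h. Its mock arrays read -5.62, -5.83 and -5.21 and its pollen arrays -5.78, -5.91 and -6.19 at 24 h, all 6 well above background. No other group had all 3 arrays above background, so P2RX6 was tested only because of its 24 h groups. At 6h50 min none was, with -8.6, -8.55 and -9.09 in mock and -7.33, -8.41 and -8.23 in pollen. From 2h25 min to 24 h, P2RX6 differed by 1.17 in mock (adjusted p = 0.125 by limma) and by 1.07 in pollen (adjusted p = 0.176), neither called.

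P2RX6 at 55 min depended on 1 array. The mock arrays read -6.66, -6.88 and -7.85, and the pollen arrays -8.76, -5.78 and -5.39, of which the first is the array of the other design. The difference was 0.49 (95% interval -0.65 to 1.62) with that array and 1.54 without it (adjusted p = 0.721 by limma). Array weights, which gave that array 0.117, called P2RX6 at 1.2 (adjusted p = 0.0399), and within the slide that held both exposures it was 1.78 (adjusted p = 1).

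In the changes to and from 6h50 min, more members passed the test, as did more of all probes, and the slide cannot be told apart from the time. From 2h25 min to 6h50 min 5 of 11 were called in mock (32.4% of all probes) and 4 in pollen (31%). P2RY2 rose by 0.53 and 0.6, P2RX4 rose by 0.35 and 0.48, and P2RY11 fell by 0.82 and 0.48 in mock and pollen. None of these calls held in all 15 alternatives: P2RY2 lost its call in 13 in mock (0.25 without mock 2h25 min replicate 1) and in 11 in pollen, P2RX4 in 9 and 3, and P2RY11 in 3 and 9. With normexp and quantile normalization, P2RX4 was at 0.01 in mock and P2RY11 at -0.25 in mock and -0.2 in pollen. In mock ADORA2B (0.47) rose and P2RX6 was called lower, and in pollen the second P2RX5 probe (1.03) rose. P2RX6 was above background on only 1 of 3 mock arrays at 2h25 min and on 0 at 6h50 min. It was tested only because of its 24 h groups, so that its call does not stand as evidence of a fall. The calls of ADORA2B, P2RX6 and the P2RX5 probe were lost in 6, 4 and 6 of 15 alternatives. With normexp and quantile normalization P2RX6 was at -0.12 and the P2RX5 probe at 0.35. The second P2RY2 probe differed by -0.02 in mock and 0.24 in pollen and was not called.

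From 6h50 min to 24 h, 7 of 11 were called in mock (40.5% of all probes) and 3 in pollen (36.2%). In both exposures P2RY11 rose, by 0.81 and 0.63, the second NT5E probe fell, by 0.9 and 1.09, and P2RX6 was at least 2.04-fold higher in mock and at least 1.62-fold higher in pollen. The P2RX6 probe passed the filter only through the 24 h groups, where it was high. Its calls towards 24 h therefore do not stand as separate evidence of a rise. In mock ADORA2B rose by 0.61, P2RY2 fell by 0.79, P2RX4 fell by 0.35, and ADORA1 was at least 1.83-fold lower. With normexp and quantile normalization P2RX6 was at 0.46 in mock and 0.28 in pollen (adjusted p = 0.0956 by limma), ADORA1 at -0.49, P2RX4 at -0.08, and P2RY11 at 0.33 and 0.35, so that the bounds above hold for the main scaling only. P2RX4 lost its call in 10 of 15 alternatives, the second NT5E probe in 4 in mock (-0.59 without mock 24 h replicate 1), P2RY11 in 3 in mock and 4 in pollen, ADORA2B in 2, and P2RY2, ADORA1 and, in pollen, P2RX6 in 1. The mock and pollen lists were not shown to differ, since 0 of 11 members passed the test of the difference between exposures at any step (0, 0, 0.00312 and 0% of all probes), and 0 had an unadjusted p under 0.05 (3.77%, 1.38%, 5.6% and 5.16%). The median of all tested probes was -0.15 and then 0.14 in these steps in mock, and -0.11 and 0.11 in pollen, with this scaling. With normexp and quantile normalization these medians were 0.01 in each case.

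The genes around these receptors were read from lists chosen with earlier results of these data known: 4 tested receptors of the same families, 8 enzymes that break down nucleotides outside the cell, 10 genes of ATP release, 11 of adenosine uptake and conversion, and 25 of the relay of the signal inside the cell. Pollen against mock called 0 of these 58 genes at any time. From 2h25 min to 24 h, 8 of 58 rose and 17 fell in mock, and 8 rose and 14 fell in pollen, where 12.5% of all probes rose and 14.9% fell in mock and 11.2% and 11.8% in pollen.

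Of the 8 enzymes that break down nucleotides, 3 fell and 0 rose in mock, and 4 fell and 0 rose in pollen. ENTPD8 and ENTPD2, which take phosphates off ATP, fell by 1.21 and 1.02 in mock (adjusted p = 0.000973 and 0.000944 by limma) and by 0.94 and 0.69 in pollen (0.00913 and 0.0216). ENPP1, which cleaves ATP to AMP and pyrophosphate, fell by 1.17 and 0.9 (0.000638 and 0.00736), and ACP3, a phosphatase that can also make adenosine, fell by 1.99 in pollen (0.00633). The ACP3 probe was well above background on only 8 of 30 arrays, and 1.99 is the fitted value, with no bound given. It passed the filter only through groups where all arrays were above background. Its fall therefore does not stand as separate evidence, and ACP3 is among the 4 enzymes that fell in pollen. The median over the 8 enzymes was -0.97 in mock and -0.79 in pollen, beside -0.07 and -0.02 over all tested probes. This median includes the dim ACP3 probe, ALPL, above background on 12 of 30 arrays, and ENTPD3, on 23.

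Of the 10 release genes 1 rose and 3 fell in mock, and 0 rose and 2 fell in pollen. Of the 11 uptake and conversion genes 1 rose and 3 fell in mock, and 2 rose and 1 fell in pollen. The shares of all probes were 12.5% and 14.9% in mock and 11.2% and 11.8% in pollen. Not all of these genes are named. The connexin GJA1 fell by 1.2 in mock and 1.38 in pollen (adjusted p = 4.62e-05 and 1.8e-05 by limma). ADK, the kinase that turns adenosine back into AMP, fell by 0.64 and 0.65 (4.62e-05 and 6.71e-05), and SLC29A3, a nucleoside transporter of lysosomes, rose by 0.56 and 0.93 (0.00704 and 0.000117). In mock the adenosine transporter SLC29A2 fell by 0.84 (0.00148) and the adenosine deaminase ADA fell by 0.45 (0.0104). P2RX7, the ATP receptor that opens a large pore, fell by 0.97 and 0.68 (0.000831 and 0.0159).

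In the relay, phosphodiesterases, which degrade cyclic AMP, moved in both directions. PDE4B fell by 1.99 in mock and 1.41 in pollen (adjusted p = 5.21e-06 and 0.00034 by limma) and PDE4D by 0.8 and 1.22 (5.83e-05 and 9.17e-07), while PDE4A rose by 0.61 and 0.8 (0.0109 and 0.0018). ADCY6, an adenylate cyclase, rose by 0.57 and 0.51 (0.00283 and 0.00831), CREM, a transcription factor that responds to cyclic AMP, rose by 0.56 and 0.38 (0.00117 and 0.0242), and PLCB3, the phospholipase of the calcium branch, fell by 0.88 and 0.57 (4.68e-05 and 0.00403).

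The culture itself had moved at 24 h. The summed log2 level of the 9 epithelial markers was 7.16 to 7.55 in mock and 7.3 to 7.57 in pollen at 24 h, against 7.79 to 8.41 and 7.87 to 8.32 at 2h25 min, and the 6 mesenchymal genes were at 6.18 to 6.39 and 6.24 to 6.5 against 6.45 to 6.82 and 6.67 to 6.87. KRT5, a basal cell keratin, fell by 2.96 in mock and fell by 2.51 in pollen (adjusted p = 5.33e-07 and 6.65e-06 by limma). The probes above background were 48.3 to 50.2% in mock and 47.9 to 51.4% in pollen at 24 h, against 51.4 to 56.2% and 52.7 to 57.4% at 2h25 min. Their part in the changes of ADORA2B, ADORA1 and NT5E was not tested.

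The genes whose level followed each member most closely over the 30 arrays are given as a description, since the arrays share slides, times and cultures. Among 17556 probes with a gene symbol, TIMM8A and MYDGF (r = 0.97) and SLC20A2 (0.96) were most like ADORA2B, and SIAE (0.95), S100A9 (0.93) and MLKL (0.92) most like NT5E. ADORA1 was most like OBSL1 and MXD3 (0.94), P2RX4 most like ANKRD36B (0.92), and P2RY11 most like OR10AC1 and ADAMTSL5 (0.89). The closest genes were less close for P2RX6 (RPL21P44, 0.88), P2RX5 (ALKBH3, 0.82) and P2RY2 (MYCL, 0.81).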

How the data were processed

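Intensities were measured on 30 one-colour Agilent arrays, 29 of a design with 58201 probes and 1 (pollen replicate 1 of 55 min) of a design with 42405. The authors deposited the scanner output of each array, from Feature Extraction 11.0.1.1 per the submitters' notes, with the processed intensity of each spot after background subtraction, and a table of normalized log2 values that the authors deposited with each array's record. The latter served as an alternative only. Spots marked as outliers were left out, spots of a probe were averaged, and each array's log2 values were set relative to its 75th percentile, taken over the 33873 probes that the designs share. The 32100 probes (24518 gene names) that cleared background on every array of some group were tested, with limma 3.58.1 in R 4.3.3 on 10 group means (20 residual degrees of freedom), Benjamini-Hochberg adjustment over all tested probes, and a call at an adjusted p below 0.05 and 1.1-fold. Interaction terms tested differences between exposures. Values are log2 differences, and folds of probes not above background in a group are lower bounds. A gene was named if it is a member, or, from the lists, if it was among the 3 largest called changes per list and direction, and markers where they moved. Not every list gene that met this rule is named. Members, lists and tests were chosen with earlier results of these data known. Arrays carry no counts, and the number of arrays limits the precision.

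Alternatives were the percentile over each design's own probes, normexp (offset 50) with quantile normalization, no filter on dim probes, array weights, a replicate block, the slide as a random block (correlation 0.268) or fixed block, dim areas left out, only the groups compared, the authors' table, and each array left out in turn. Same-numbered replicates of mock and pollen deviated together at 10 min (correlations 0.31, 0.3 and 0.3), 2h25 min (0.46, 0.38 and 0.5) and 24 h (0.42, 0.2 and 0.19), which counts as pairing, but not at 55 min (0.19, -0.05 and 0.23) and 6h50 min (0.06, 0.09 and 0.05). The fits were tested on simulated data. Sequences are from the array's annotation (hg19) and from RefSeq (GRCh38.p14). Sequences of the other member probes and 1 marker are not reported here. Exons and UTRs of the probes were not analysed here.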

Additional observations from a re-analysis of the deposited data

How the results depend on the processing

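Pollen against mock called 0 members at every time, and the replicate block, which pairs mock and pollen arrays of one number, also gave 0 at each time. For changes with time the block was instead the replicate number shared over all times. Neither form changed any other call. Array weights gave 1 at 55 min (P2RX6). No called result was reversed, and 121 of the 913 alternative values of single probes in pollen against mock had the opposite sign. Counts of called members in the steps between times moved as follows. From 55 min to 2h25 min in mock (0), array weights gave 1. In pollen from 10 to 55 min (0), array weights gave 1, and leaving out an array gave 0 to 1, with 1 without pollen 55 min replicate 1. In pollen from 55 min to 2h25 min (1), normexp, no filter, only the groups compared, the slide as a fixed block, the values within the slide and the authors' table read by the common design's numbers gave 0, array weights gave 2, and leaving out an array gave 0 to 0. From 2h25 to 6h50 min in mock (5), own percentile, normexp and the authors' table gave 0, no filter 3, the slide as a random block 1, only the groups compared 2, and leaving out an array 2 to 5. In pollen (4), own percentile and normexp gave 0, no filter and only the groups compared 2, the slide as a random block 1, the authors' values also 1, and leaving out an array 2 to 3. From 6h50 min to 24 h in mock (7), own percentile and the slide as a random block gave 4, normexp 3, and leaving out an array 5 to 7. In pollen (3), normexp gave 1 and leaving out an array 3 to 4. From 2h25 min to 24 h in pollen (3), own percentile and normexp gave 1, array weights 5, and leaving out an array 2 to 5, with 5 without pollen 24 h replicate 3. In mock (4), leaving out an array gave 3 to 5. The share of all probes called under each alternative is not given beside these counts. They therefore describe the processing and are not read as results about the members. The cause was not tested. Of the 415 alternative values of single probes that were called, 299 kept the call and 116 lost it.

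The limits are few arrays per group, dim probes for ADORA1, ADORA2A and P2RX6, and the slide of 6h50 min.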

Other observations

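In the authors' table of values, the column of pollen replicate 1 at 55 min follows the numbering of its own array design. Read by the common design's row numbers, ADORA2B is at 4.82 there, against 11.41 by its own numbers, 11.98 to 12.24 on the mock arrays, and 12.2 and 12.14 on the other pollen arrays of that time. NT5E is at 16.43 read by the common design's numbers and at 7.61 by its own, against 8.73 to 9.12 in mock. The difference of pollen minus mock at 55 min in that table is -0.19 for ADORA2B by the own numbers and -2.39 by the common ones, -0.46 and 2.48 for NT5E, -0.38 and -2.68 for P2RX4, -0.44 and 0.72 for ADORA1, and -0.55 and 0.99 for P2RY2.

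Set against the scanner values, 24 of the table's columns were most like their own array, and 6 columns, all of 24 h, were most like another array of the same group (Spearman correlation with their own array 0.943 to 0.96). Differences between groups are untouched by an exchange within a group, but per-array values at 24 h in this text are those of the scanner files.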
